A study of Mus musculus with 12 samples.

Results

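The amino acid transporters of the solute carrier (SLC) families SLC1, SLC3, SLC6, SLC7, SLC36, SLC38 and SLC43 were followed in mouse embryonic liver cell lines moved from basal culture into aggregates. The members were all genes whose annotated symbol starts with Slc1a, Slc3a, Slc6a, Slc7a, Slc36a, Slc38a or Slc43a followed by digits. The rule found 63 of 18194 genes on the array, read through 1 probe set each, the one with the highest mean over the 12 arrays. Of these, 60 encode carriers or their subunits and 3 (Slc36a1os, Slc6a19os and Slc7a6os) are named as opposite-strand genes. The symbol rule also takes in relatives that carry other substrates, such as the creatine, serotonin and dopamine carriers of SLC6.

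The study profiled 9A1 and 14B3, bipotential mouse embryonic liver (BMEL) lines isolated independently from livers of day 14 embryos of a CBA/J x C57Bl/6J cross. Each line was kept in basal culture, in aggregates for 1 day, or in aggregates for 5 days, with 2 biological replicates per combination. The 6 groups were thus basal 9A1, basal 14B3, day 1 9A1, day 1 14B3, day 5 9A1 and day 5 14B3, none of them with a stated transgene or drug. A line stands for 1 isolate, so a difference between 9A1 and 14B3 is a difference between these 2 isolates.

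Amino acid carriers bring amino acids into cells or exchange one for another across the membrane. Several light chains of SLC7 work only when joined to a heavy chain: 4F2hc (Slc3a2) takes carriers to the basolateral or general plasma membrane, and rBAT (Slc3a1) takes its partner to the apical brush border of kidney and gut cells. When amino acids are short, the transcription factor ATF4 raises a set of carriers and biosynthetic enzymes by binding composite C/EBP-ATF elements, while genes of absorptive epithelia are often bound by HNF1 factors. Adult liver is known for the system N carrier Slc38a3 and the system A carrier Slc38a4.

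The promoters of 5 members whose levels the results turn on are shown because they hold the letters of one of these elements. They were read from the RefSeq promoter table (build GRCm38.p6) and run 5′ to 3′ on the gene's own strand, from 150 bases before the annotated start through the first 20 bases from it. Capitals mark TGATGNAA (a C/EBP-ATF element) in Slc7a11, Slc1a4 and Slc7a7 or GTTAAT (an HNF1 half-site) in Slc3a1 and Slc6a20a, on either strand. The windows lie at chr3:50443594-50443763 (minus strand), chr11:20332694-20332863 (minus strand), chr14:54417925-54418094 (minus strand, 1 of 5 windows of this gene), chr17:85028197-85028366 (plus strand) and chr9:123678813-123678982 (minus strand).
Slc7a11 promoter: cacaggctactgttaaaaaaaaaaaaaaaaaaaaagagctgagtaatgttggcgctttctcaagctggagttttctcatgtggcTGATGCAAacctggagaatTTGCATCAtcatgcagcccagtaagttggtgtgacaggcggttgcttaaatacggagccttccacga
Slc1a4 promoter: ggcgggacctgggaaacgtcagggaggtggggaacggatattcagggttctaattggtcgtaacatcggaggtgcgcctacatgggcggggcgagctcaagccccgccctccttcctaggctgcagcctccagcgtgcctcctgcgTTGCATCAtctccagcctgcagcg
Slc7a7 promoter: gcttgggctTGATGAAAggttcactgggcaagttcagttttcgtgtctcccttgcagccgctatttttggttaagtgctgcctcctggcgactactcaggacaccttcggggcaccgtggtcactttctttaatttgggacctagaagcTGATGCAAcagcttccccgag
Slc3a1 promoter: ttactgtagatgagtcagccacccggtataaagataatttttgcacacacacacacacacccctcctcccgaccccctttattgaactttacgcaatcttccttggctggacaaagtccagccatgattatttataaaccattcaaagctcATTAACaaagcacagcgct
Slc6a20a promoter: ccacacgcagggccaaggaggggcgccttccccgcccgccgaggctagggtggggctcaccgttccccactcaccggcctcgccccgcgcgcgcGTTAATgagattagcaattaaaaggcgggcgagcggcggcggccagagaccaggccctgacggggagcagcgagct

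Of the 63 members, 46 had an entry in that table, with 67 windows of 300 bases (250 before the start and 50 from it). TGATGNAA was found in 5 of these 67 windows (7.46%), belonging to Slc1a4, Slc6a21, Slc7a11 and Slc7a7, against 3.97% of all 32851 windows in the table. GTTAAT was found in 7 of the 67 windows (10.4%), belonging to Slc36a1, Slc3a1, Slc6a13, Slc6a16, Slc6a20a, Slc7a15 and Slc7a7, against 7.10% of all windows. Both strands were searched, and each printed window holds only 1 of the motifs. Slc7a11 holds a facing pair of TGATGNAA matches that begin at -66 and -47, counted in bases from the start, whereas Slc1a4 holds 1 match that spans the start. A match describes the letters of a window, not binding.

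Levels are log2 values after robust multi-array averaging (RMA), so a difference of 1 is a 2-fold change, and levels of different genes cannot be set against each other because their probes differ. A gene was tested where at least 2 of the 12 arrays reached a log2 level of 5, taken as the floor for a readable signal. This left 15781 genes, 56 of the 63 members among them. Slc38a4, Slc38a5, Slc6a12, Slc6a15, Slc7a12, Slc7a14 and Slc7a8 were not tested, 6 of them below the floor on every array and Slc6a12 above it on 1, with levels between 3.86 and 5.08. Slc38a4, a carrier of adult hepatocytes, was thus not readable here in any culture. A difference was called where the Benjamini-Hochberg adjusted p of limma's moderated test over all tested genes was under 0.05.

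Array medians were alike, between 6.09 and 6.24. Basal 9A1 replicate 1 stood apart from its culture: it correlated best with a day 5 array (day 5 14B3 replicate 1, r = 0.976) and less with its own replicate (r = 0.952). It is named below wherever it decides a value. The day 1 9A1 arrays correlated no better with each other (r = 0.9495), and each was closest to a day 1 array of 14B3 (r = 0.984 and 0.975). The spread on day 1 9A1 replicate 2 was also narrower than elsewhere (SD 2.13 over genes, against 2.25 to 2.33 on the other arrays). Hepatocyte markers were present but uneven. Hnf4a, a liver and gut transcription factor, was at 11.0 to 12.7 on all arrays, whereas Tat, an enzyme of mature hepatocytes, stayed at 5.64 to 6.54. The intestinal transcription factor Cdx2 was at 9.92 or above on every array, while its relative Cdx1 stayed at 5.01 to 5.61. Among fetal liver progenitor markers, Krt8 read 14.0 to 14.2, Krt18 12.4 to 14.0 and Afp 8.97 to 13.7. Igf2 read 6.74 to 9.27 and Dlk1 5.55 to 7.08. Of 4 measured blood markers, Ptprc and Hba-a1 were under the floor on all arrays and Itgam on 11, while the macrophage marker Cd68 read 5.85 to 8.13. Among endothelial markers, Tek was under the floor on all arrays and Pecam1 and Stab2 on 9. Kdr read 5.76 to 6.97 and Cdh5 4.64 to 7.65, highest on basal 9A1 replicate 1. Of 6 stellate and fibroblast markers, Lrat was under the floor (4.03 to 4.46), Col1a1, Pdgfrb, Acta2 and Des lay between 5.28 and 7.33, and Vim, also made by cultured epithelial cells, was at 12.6 to 14.0.

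In aggregates the plasma membrane importers Slc7a5, Slc7a1, Slc7a11 and Slc1a5 were lower than in basal culture at both times, and by day 5 the brush border carriers or subunits Slc3a1, Slc7a9 and Slc6a20a were higher by 5.75, 4.79 and 4.63 on the log2 scale. The size of these 3 rests on single basal arrays: without basal 9A1 replicate 2 it was 4.45, 3.48 and 3.59, and without basal 9A1 replicate 1 it was 7.05, 6.10 and 5.66. After 1 day, 14 of 56 tested members were called against basal culture, 8 higher and 6 lower, which is 25% of the members against 14% of all tested genes (5.25% higher and 8.8% lower), and without basal 14B3 replicate 1 the count was 8. After 5 days, 25 were called, 16 higher and 9 lower, or 44.6% against 35.4% of all tested genes (16.9% higher and 18.5% lower). Between day 5 and day 1, 15 were called, 10 higher and 5 lower, or 26.8% against 21.7% of all tested genes (11.7% higher and 10% lower). The median difference of the members was close to 0 in each of these comparisons, 0.03 at day 1 and 0.06 at day 5 against basal, beside 0.03 and 0.01 over all tested genes. In total 27 members were called in at least 1 of the 3 comparisons, and the day 5 and day 1 comparisons share the basal arrays. Fewer cells of a type and less RNA per cell cannot be told apart in these bulk samples.

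**Figure D1:**
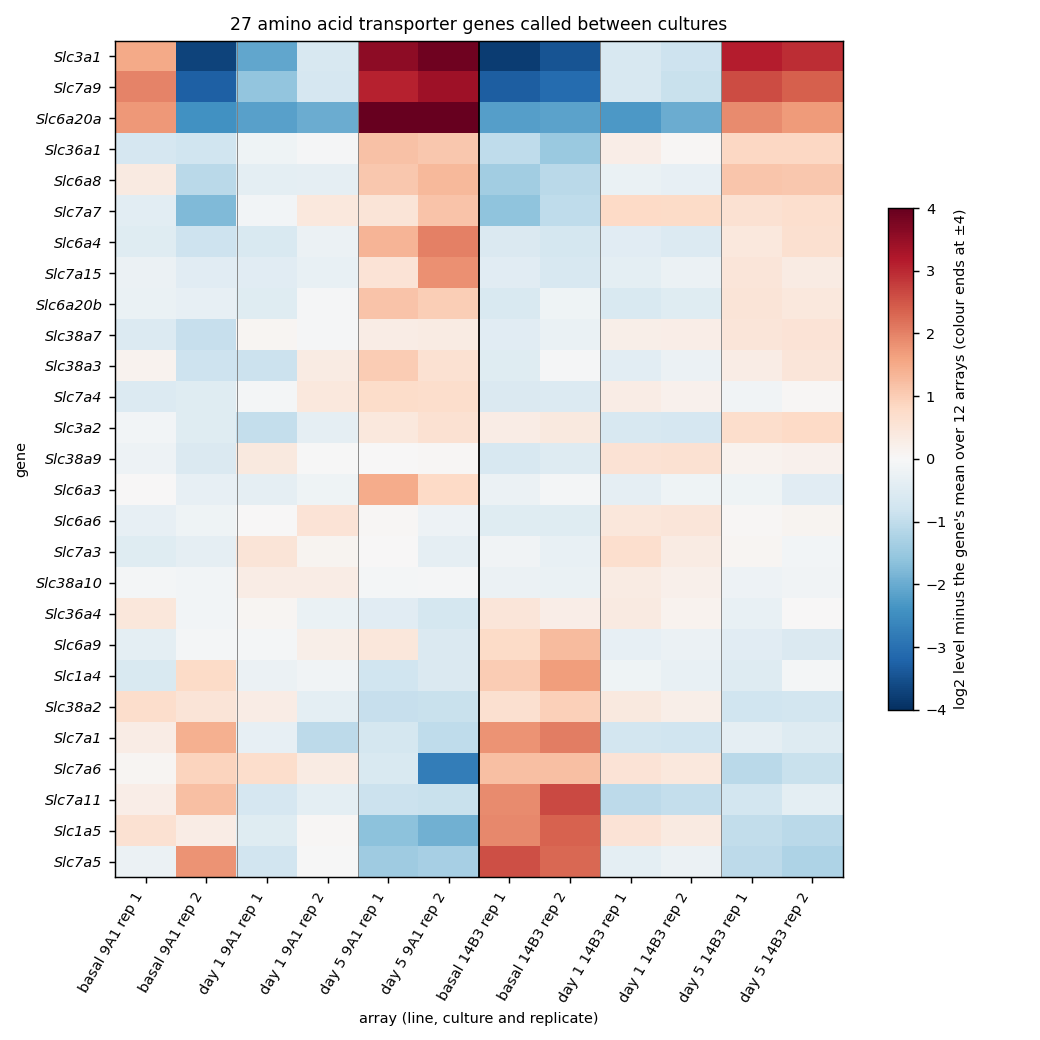
Each row is 1 of the 27 called members and each column 1 array, with 9A1 left of 14B3 and cultures in time order; colour gives the log2 level minus the gene's mean over the 12 arrays. The top rows, Slc3a1, Slc7a9 and Slc6a20a, are high on all 4 day 5 arrays and also on basal 9A1 replicate 1.

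The heavy chains did not move alike. Slc3a1 (rBAT), the partner of the cystine carrier Slc7a9 in the brush border, read 10.41 and 5.21 in basal 9A1 and 5.11 and 5.46 in basal 14B3. After 1 day it read 6.83 and 8.27 in 9A1 and 8.27 and 8.08 in 14B3, and after 5 days 12.49 and 12.80 in 9A1 and 12.05 and 11.87 in 14B3. All 4 day 5 arrays lay above every basal and day 1 array, and the 1 basal array near them was basal 9A1 replicate 1. Slc3a1 was higher at day 5 than in basal culture by 5.75 ± 0.91 (limma difference ± SE, log2), a 54.0-fold change (limma adjusted p = 0.00128), and higher than at day 1 by 4.44 ± 0.91 (limma adjusted p = 0.00873). Leaving out basal 9A1 replicate 1 gave 7.05 at day 5 against basal, and leaving out basal 9A1 replicate 2 gave 4.45. At day 1 its difference from basal, 1.31, did not pass, with basal 9A1 replicate 1 among the basal arrays. The other basal arrays, at 5.11 to 5.46, lay below all day 1 arrays, at 6.83 to 8.27. In 14B3 alone the mean went from 5.29 in basal culture to 8.17 at day 1, also without a call.

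Slc3a2 (4F2hc) kept high levels in every culture and dipped at day 1. It read 11.96 and 11.59 in basal 9A1 and 12.35 and 12.44 in basal 14B3, then 11.11 and 11.71 at day 1 in 9A1 and 11.43 and 11.39 at day 1 in 14B3, then 12.49 and 12.68 at day 5 in 9A1 and 12.78 and 12.88 at day 5 in 14B3. The day 5 arrays were the 4 highest, and of the day 1 arrays only day 1 9A1 replicate 2 overlapped basal culture. Slc3a2 fell at day 1 by 0.67 ± 0.14 (log2, limma adjusted p = 0.0150) and was higher at day 5 than in basal culture by 0.62 ± 0.14 (limma adjusted p = 0.00787). It was the one member called lower at day 1 and higher at day 5. The day 1 call was lost when any of the 4 basal or day 1 14B3 arrays was left out (limma adjusted p up to 0.0666).

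**Figure D2:**
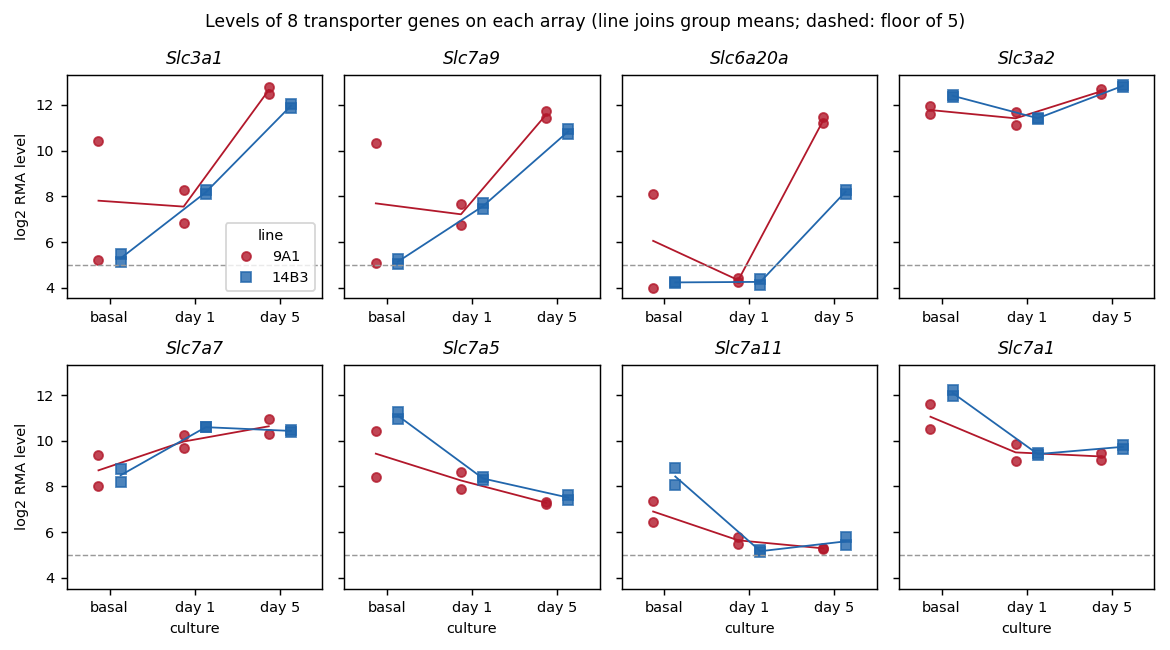
Log2 RMA level of 8 members on each array (points, 9A1 in red circles left of 14B3 in blue squares), by culture, with lines joining the means of 2 replicates and a dashed line at the floor of 5. Slc3a1, Slc7a9 and Slc6a20a reach their highest levels at day 5, Slc7a5, Slc7a11 and Slc7a1 are lower in aggregates, and the upper basal 9A1 point of the first 3 panels is replicate 1.

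Among the light chains of SLC7, 8 of 10 were tested, and at day 5 3 were higher and 3 lower than in basal culture. Slc7a9 (b0,+AT), which pairs with rBAT to take up cystine and cationic amino acids, read 10.31 and 5.07 in basal 9A1 and 5.04 and 5.25 in basal 14B3. It read 6.76 and 7.67 at day 1 in 9A1, 7.69 and 7.46 at day 1 in 14B3, 11.42 and 11.72 at day 5 in 9A1, and 10.94 and 10.73 at day 5 in 14B3. The day 5 arrays were highest and basal 9A1 replicate 1 came next, the same order as for its partner Slc3a1. The other basal arrays, at 5.04 to 5.25, lay below all day 1 arrays, at 6.76 to 7.69, but the day 1 difference from basal was not called. At day 5 Slc7a9 was higher than in basal culture by 4.79 ± 0.89 (log2, 27.6-fold, limma adjusted p = 0.00295). The difference was 6.10 without basal 9A1 replicate 1 and 3.48 without replicate 2 of that group. Against day 1 it was higher by 3.81 ± 0.89 (limma adjusted p = 0.0157), a call lost without day 5 9A1 replicate 2 or any of the 4 aggregate arrays of 14B3 (adjusted p up to 0.0592).

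Slc7a7 (y+LAT1), which with 4F2hc passes cationic amino acids out across the basolateral membrane, read 9.38 and 8.03 in basal 9A1 and 8.20 and 8.78 in basal 14B3. It read 9.69 and 10.24 at day 1 in 9A1 and 10.61 and 10.58 at day 1 in 14B3, and at day 5 10.31 and 10.95 in 9A1 and 10.40 and 10.46 in 14B3. Every aggregate array lay above every basal array. Slc7a7 rose by 1.68 ± 0.30 (log2) at day 1 (limma adjusted p = 0.00722) and by 1.93 ± 0.30 at day 5 (limma adjusted p = 0.00117), each against basal. Slc7a15, another light chain relative, was higher at day 5 than in basal culture by 1.23 ± 0.24 (log2, limma adjusted p = 0.00348), with means near the floor of 6.32 at day 5 and 5.09 in basal culture.

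The 3 light chains that fell at day 5 all pair with 4F2hc. Slc7a5 (LAT1), the main importer of leucine and other large neutral amino acids in dividing cells, read 8.43 and 10.44 in basal 9A1 and 11.24 and 10.95 in basal 14B3. It read 7.89 and 8.63 at day 1 in 9A1, 8.28 and 8.42 at day 1 in 14B3, 7.25 and 7.33 at day 5 in 9A1, and 7.62 and 7.41 at day 5 in 14B3. The day 5 arrays were below all others. Slc7a5 fell by 1.96 ± 0.38 (log2) at day 1 (limma adjusted p = 0.0101) and by 2.86 ± 0.38 at day 5, 7.28-fold (limma adjusted p = 0.000547). Without basal 14B3 replicate 1 the day 1 call was lost (adjusted p = 0.0517).

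Slc7a11 (xCT), the cystine-glutamate exchanger that feeds glutathione synthesis, read 6.44 and 7.37 in basal 9A1 and 8.06 and 8.81 in basal 14B3. In aggregates it was between 5.12 and 5.79 on all 8 arrays. It read 5.50 and 5.79 at day 1 in 9A1, 5.12 and 5.22 at day 1 in 14B3, 5.32 and 5.27 at day 5 in 9A1, and 5.43 and 5.77 at day 5 in 14B3. No aggregate array reached a basal one, and with levels this near the floor background limits the size of the fold. Slc7a11 fell by 2.26 ± 0.23 (log2) at day 1 (4.80-fold, limma adjusted p = 0.000641) and fell by 2.22 ± 0.23 at day 5 (4.67-fold, limma adjusted p = 0.000194). A second probe set of the gene moved the same way at day 5, by -2.91.

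Slc7a6 (y+LAT2), an exchanger of cationic for neutral amino acids, fell late. It read 9.07 and 9.86 in basal 9A1 and 10.19 and 10.17 in basal 14B3, 9.69 and 9.30 at day 1 in 9A1 and 9.54 and 9.40 at day 1 in 14B3, then 8.38 and 6.20 at day 5 in 9A1 and 7.89 and 8.09 at day 5 in 14B3. The day 5 arrays lay below all others, with day 5 9A1 replicate 2 lowest. It fell by 2.18 ± 0.41 (log2) at day 5 against basal (limma adjusted p = 0.00291) and by 1.84 ± 0.41 against day 1 (limma adjusted p = 0.0123). At day 1 the difference of -0.34 did not pass. Its opposite-strand neighbour Slc7a6os was not called, at 6.54 to 7.71 over the arrays and 0.00 at day 5 against basal, but a second, dimmer probe set of that gene (mean level 6.84) differed by -1.30 at day 5 against basal and by -1.14 against day 1.

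Of the cationic carriers that need no heavy chain, Slc7a1 (CAT1), the widespread arginine and lysine importer, fell. It read 10.49 and 11.61 in basal 9A1 and 11.97 and 12.22 in basal 14B3, 9.85 and 9.13 at day 1 in 9A1 and 9.45 and 9.38 at day 1 in 14B3, and 9.47 and 9.16 at day 5 in 9A1 and 9.81 and 9.66 at day 5 in 14B3. All 8 aggregate arrays lay below all 4 basal arrays. The fall was 2.12 ± 0.25 (log2) at day 1 (4.34-fold, limma adjusted p = 0.00110) and 2.05 ± 0.25 at day 5 (limma adjusted p = 0.000386). Slc7a4, a CAT relative whose substrate is unsettled, rose by 0.73 ± 0.14 at day 1 and by 0.87 ± 0.14 at day 5 (limma adjusted p = 0.00145), and its day 1 call was lost without basal 14B3 replicate 1 (adjusted p = 0.0531). Slc7a3 (CAT3) was higher at day 1 by 0.74 ± 0.15, with a mean of only 6.25 at day 1, and fell again between day 1 and day 5 by 0.50 ± 0.15. Its day 1 call was lost without basal 14B3 replicate 2 (adjusted p = 0.0535), and the later one on leaving out any of 8 arrays (adjusted p up to 0.152).

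Slc7a2, the cationic carrier known from adult liver, was not called. It was at 4.20 to 5.52 on 11 arrays and at 7.55 on basal 9A1 replicate 1.

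Neutral amino acid exchangers of SLC1 fell. Slc1a5 (ASCT2), an importer of glutamine and other neutral amino acids, read 8.11 and 7.80 in basal 9A1 and 9.44 and 9.88 in basal 14B3. It read 7.03 and 7.54 at day 1 in 9A1, 8.06 and 7.87 at day 1 in 14B3, 5.87 and 5.58 at day 5 in 9A1, and 6.51 and 6.42 at day 5 in 14B3. Within each line the levels stepped down from basal culture to day 1 and to day 5 with no overlap. The fall was 1.18 ± 0.18 (log2) at day 1 (limma adjusted p = 0.00325) and 2.71 ± 0.18 at day 5 (6.55-fold, limma adjusted p = 3.05e-05), and day 5 was below day 1 by 1.53 ± 0.18 (limma adjusted p = 0.000722). A second, dimmer probe set of Slc1a5 with a mean level of 6.05 differed by only -0.18 at day 5 against basal.

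Slc1a4 (ASCT1), an exchanger of alanine, serine and cysteine, fell at day 5 by 1.20 ± 0.29 (log2, limma adjusted p = 0.0104), with means of 7.69 at day 5 and 8.89 in basal culture. Its 2 other probe sets gave -1.41 and -0.91. The glutamate carriers Slc1a1, Slc1a2, Slc1a3, Slc1a6 and Slc1a7 were not called, and each varied by at most 0.88 over the 12 arrays.

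The SLC38 members split. Slc38a2 (SNAT2), the system A carrier that cells raise under amino acid shortage, fell at day 5 by 1.55 ± 0.16 (log2, limma adjusted p = 0.000177) and between day 1 and day 5 by 0.97 ± 0.16 (limma adjusted p = 0.00334). Its means were 11.56 in basal culture, 10.98 at day 1 and 10.01 at day 5. The day 1 fall of 0.58 ± 0.16 passed in the main fit (limma adjusted p = 0.0430) but under only 9 of 22 alternative settings, and was lost on leaving out any of 9 arrays, basal 9A1 replicate 1 among them (adjusted p up to 0.160). Slc38a1 (SNAT1), its neighbour on chromosome 15, was not called in any averaged comparison and is described with the lines.

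Higher in aggregates were Slc38a7, a lysosomal exporter of glutamine and asparagine, by 0.67 ± 0.13 at day 1 and 0.96 ± 0.13 at day 5, and Slc38a9, the lysosomal arginine sensor of mTORC1, by 0.87 ± 0.14 at day 1 and 0.58 ± 0.14 at day 5 (all log2). Slc38a7 lost its day 1 call when either basal 14B3 replicate 1 or the second day 1 array of 14B3 was left out (adjusted p up to 0.0640), and Slc38a9 its day 5 call without basal 14B3 replicate 1 (adjusted p = 0.0516). Slc38a10 rose by 0.46 ± 0.10 at day 1 and fell by 0.41 ± 0.10 between day 1 and day 5, calls lost on leaving out any of 3 arrays of 14B3 (adjusted p up to 0.0733) and any of 4 arrays (adjusted p up to 0.0765). Slc38a3 (SNAT3), the hepatic system N carrier, was higher at day 5 by 0.90 ± 0.29 (limma adjusted p = 0.0391), with means of 7.75 at day 5 and 6.85 in basal culture. That call passed under 11 of 22 alternative settings and was lost on leaving out any of 9 arrays (adjusted p up to 0.132), and a second probe set differed by 0.13.

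Proton-coupled Slc36a1 (PAT1), an exporter of small neutral amino acids from lysosomes, rose in 2 steps. It read 7.52 and 7.40 in basal 9A1 and 7.20 and 6.71 in basal 14B3, 8.03 and 8.17 at day 1 in 9A1 and 8.49 and 8.26 at day 1 in 14B3, and 9.37 and 9.27 at day 5 in 9A1 and 9.04 and 9.03 at day 5 in 14B3. The 3 cultures did not overlap. It rose by 1.03 ± 0.15 (log2) at day 1 (limma adjusted p = 0.00284) and by 1.97 ± 0.15 at day 5 (3.91-fold, limma adjusted p = 4.23e-05), the day 5 call with the second lowest adjusted p among the members after Slc1a5. Its relative Slc36a4 fell at day 5 by 0.63 ± 0.18 (limma adjusted p = 0.0205). That call was lost when day 5 9A1 replicate 2 or the first basal or day 5 array of 14B3 was left out. Slc36a2 and Slc36a3, which neighbour Slc36a1 on chromosome 11, were not called and stayed between 5.58 and 7.01.

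Of the epithelial SLC6 carriers, the proline carrier Slc6a20a (SIT1), found in the brush border of kidney and gut, was higher at day 5. It read 8.12 and 3.98 in basal 9A1 and 4.20 and 4.27 in basal 14B3, 4.23 and 4.43 at day 1 in 9A1 and 4.11 and 4.40 at day 1 in 14B3, and 11.45 and 11.22 at day 5 in 9A1 and 8.28 and 8.12 at day 5 in 14B3. All arrays but the day 5 ones and basal 9A1 replicate 1 were below the floor, so background limits the size of the change. It was higher at day 5 than at day 1 by 5.48 ± 0.70 (log2, limma adjusted p = 0.00107) and than in basal culture by 4.63 ± 0.70 (limma adjusted p = 0.00103). Without basal 9A1 replicate 1 the day 5 difference from basal was 5.66, and without replicate 2 of that group 3.59.

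Its neighbour on chromosome 9, Slc6a20b, moved the same way by less, with means of 6.12 at day 5 and 5.01 in basal culture (1.11 ± 0.14, limma adjusted p = 0.000443). The 2 genes are paralogs, and cross-hybridisation between their probes was not tested. Slc6a19, the main neutral amino acid carrier of the gut brush border, was not called, at 5.82 to 6.77 on all arrays.

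Slc6a8, the creatine carrier, read 10.55 and 9.11 in basal 9A1 and 8.79 and 9.09 in basal 14B3, 9.79 and 9.81 at day 1 in 9A1 and 9.91 and 9.85 at day 1 in 14B3, and 11.25 and 11.49 at day 5 in 9A1 and 11.28 and 11.27 at day 5 in 14B3. The day 5 arrays lay above the rest, and basal 9A1 replicate 1 was the highest array outside day 5. Slc6a8 was higher at day 5 than in basal culture by 1.94 ± 0.26 (log2, limma adjusted p = 0.000643). Slc6a4, the serotonin carrier of neurons and enterocytes, read 6.09 and 5.75 in basal 9A1 and 6.01 and 5.88 in basal 14B3, 5.98 and 6.34 at day 1 in 9A1 and 6.14 and 6.05 at day 1 in 14B3, and 7.95 and 8.59 at day 5 in 9A1 and 7.00 and 7.23 at day 5 in 14B3. Its day 5 arrays were above all others, and it was higher than in basal culture by 1.76 ± 0.18 (3.38-fold, limma adjusted p = 0.000157).

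Slc6a3, the dopamine carrier, was higher at day 5 by 0.57 ± 0.17 (log2, limma adjusted p = 0.0288), with 7.40 and 6.72 at day 5 in 9A1, against 5.49 to 5.94 on the 10 other arrays. That call was lost on leaving out any of 6 arrays (adjusted p up to 0.110). Slc6a6, the taurine carrier, peaked at day 1 with a mean of 12.15, against 11.41 in basal culture (0.74 ± 0.13, limma adjusted p = 0.00597), and its day 5 call (0.37 ± 0.13, limma adjusted p = 0.0479) passed under 7 of 22 alternative settings and was lost on leaving out any of 10 arrays (adjusted p up to 0.155). Slc6a9, the glycine carrier, was lower at day 5 by 0.69 ± 0.23 (limma adjusted p = 0.0467). That call passed under 10 of 22 settings, was lost on leaving out any of 8 arrays, and its arrays overlap. The fall was in 14B3, with means of 9.58 in basal culture and 8.04 at day 5, while 9A1 went from 8.35 to 8.51.

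**Figure D3:**
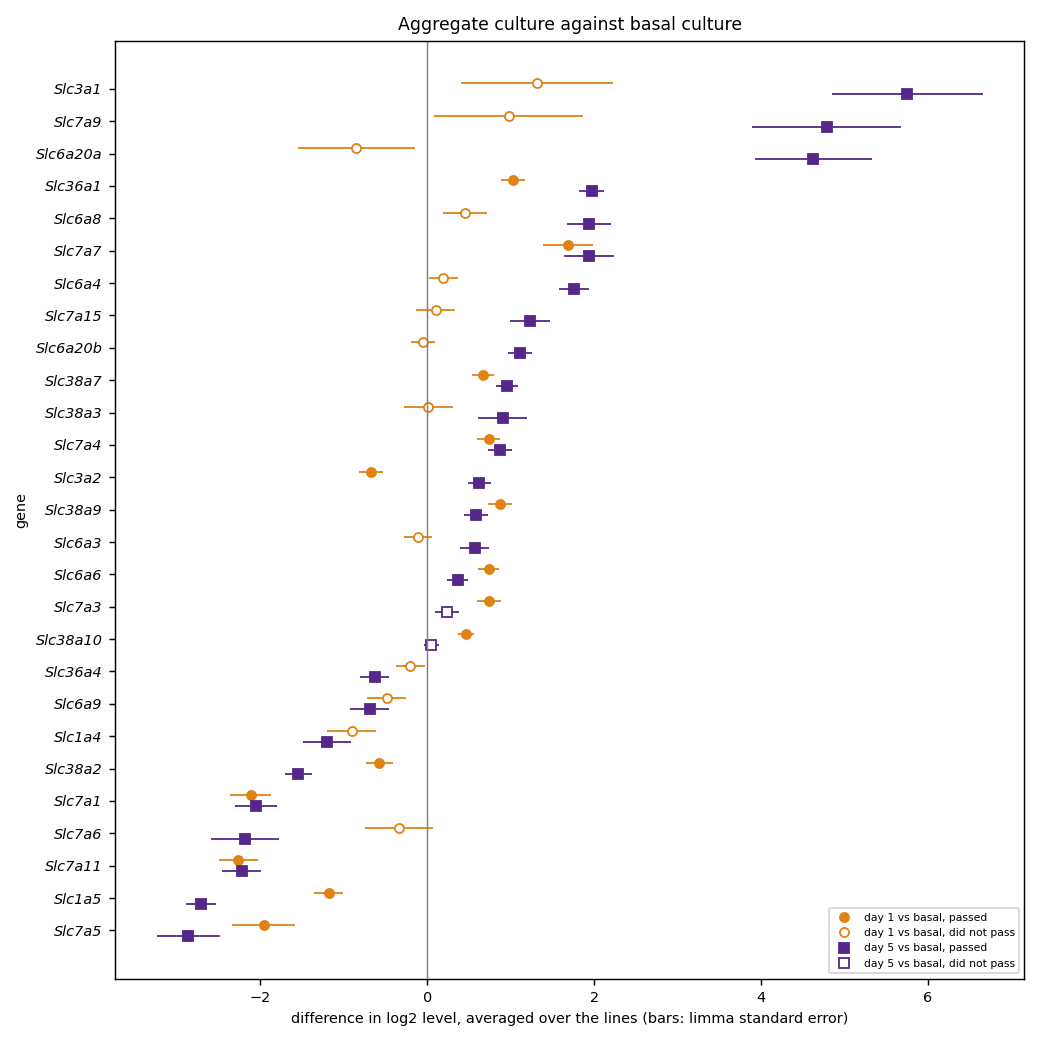
Difference in log2 level from basal culture, averaged over the lines, of the 27 called members at day 1 (circles) and day 5 (squares), with limma standard errors as bars and filled symbols where the test passed. Slc7a5 at -2.86 and Slc3a1 at 5.75 mark the ends at day 5, and Slc3a2 lies on opposite sides of 0 at day 1 and day 5.

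The pattern over time was mixed. Of the called members, 6 were higher at both times against basal, 5 lower at both, and 9 higher and 4 lower at day 5 without a call at day 1. At day 5, 14 of the 25 called members had more than 1 probe set, and Slc38a9 had probe sets on both sides of 0. The arrays of 19 of the 25 did not overlap between day 5 and basal culture, and those of the other 6 did. These 25 were picked by a test on the same arrays, and the share without overlap among all called genes was not counted.

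The 29 tested members that were not called included 4 whose levels varied by 1.5 or more over the 12 arrays, namely Slc38a1, Slc43a2, Slc43a3 and Slc7a2. Slc43a3, a carrier of purine bases despite its family, was at 7.86 and 8.61 at day 5 in 14B3 and at 10.38 and 10.11 in basal 14B3, while in 9A1 it was 7.75 and 10.54 in basal culture. The other 25 varied by at most 1.17 and ranged over levels of 4.57 to 8.85. They were Slc43a1, the SLC6 members Slc6a14, Slc6a16, Slc6a17, Slc6a18, Slc6a19, Slc6a21, Slc6a2, Slc6a5, Slc6a7, Slc6a11 and Slc6a13, the 5 glutamate carriers named above, the light chains Slc7a10 and Slc7a13, Slc36a2, Slc36a3, Slc38a6 and the 3 opposite-strand genes.

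Both lines shared much of the response. In 9A1 at day 5, 18 members were called against basal (12 higher, 6 lower), or 32.1% of the members against 15.2% of all tested genes (6.66% higher and 8.54% lower). In 14B3 at day 5, 19 were called (11 higher, 8 lower), or 33.9% against 26.7% of all tested genes (12.6% higher and 14.1% lower). The 2 lists share 14 genes, 77.8% of the 9A1 list and 73.7% of the 14B3 list, and the same share over all called genes was not counted. Of the 25 members called at day 5 averaged over the lines, 23 moved the same way in both lines, and Slc6a3 and Slc6a9 did not. In 14B3 at day 1, 13 were called (6 higher, 7 lower), or 23.2% of the members against 8.57% of all tested genes (3.4% higher and 5.17% lower). In 9A1 at day 1 limma called 0 members, with 13 at an unadjusted p under 0.05, beside calls in 1.88% of all tested genes (0.342% higher and 1.53% lower). Single arrays decided these counts: 9A1 at day 1 had 14 calls without day 1 9A1 replicate 1, 7 without basal 9A1 replicate 1 and 4 without basal 9A1 replicate 2. In 14B3 at day 1, leaving out any of its 4 arrays left 1 to 4 calls. At day 5, leaving out day 5 9A1 replicate 2 left 7 in 9A1, and leaving out any of the 4 basal or day 5 arrays of 14B3 left 8 to 11 in 14B3.

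Between the lines, averaged over cultures, 1 member was called and 0.272% of all tested genes. Slc1a5 was lower in 9A1 than in 14B3 by 1.04 ± 0.14 (log2, limma adjusted p = 0.0307), in each of the 3 cultures. The call passed under 11 of 22 alternative settings and was lost on leaving out either day 5 9A1 array or any 14B3 array (adjusted p up to 0.146), and 9 members were called without basal 9A1 replicate 2 and 2 without basal 9A1 replicate 1. The test of unequal responses of the lines called 0 members at day 1 (4 at an unadjusted p under 0.05; 0% of all genes) and 0 at day 5 (8 at an unadjusted p under 0.05; 0.038% of all genes). Without basal 9A1 replicate 2 these counts were 9 and 6, without basal 9A1 replicate 1 the day 5 count was 1, and without day 1 9A1 replicate 1 the day 1 count was 1.

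Several members nonetheless had different values in the lines, and they are given here after their values were seen. Slc38a1, the widespread system A glutamine carrier, was at 11.95 and 12.34 at day 5 in 9A1, against 10.69 and 9.70 at day 5 in 14B3, with 11.26 to 11.41 in basal culture of both lines. The difference at day 5 was 1.95 ± 0.44 (limma adjusted p = 0.226). Slc6a20a was at 11.45 and 11.22 at day 5 in 9A1 and 8.28 and 8.12 at day 5 in 14B3, a difference of 3.14 ± 0.99 (limma adjusted p = 0.569). Slc6a3 differed at day 5 by 1.44 ± 0.24 (limma adjusted p = 0.0738) and Slc6a4 by 1.15 ± 0.25 (limma adjusted p = 0.200). The fall of Slc7a11 at day 1 was smaller in 9A1 than in 14B3 by 2.01 ± 0.47 (limma adjusted p = 0.940). At day 5 the lines differed in 0 of 56 members, with 9 at an unadjusted p under 0.05, beside 0.247% of all tested genes, and 2 arrays per group limit what the test can call.

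**Figure D4:**
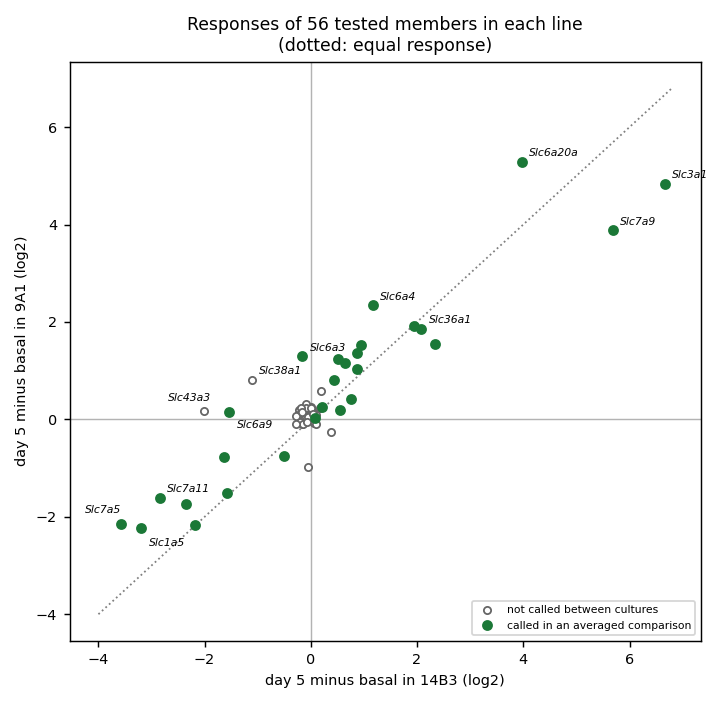
Day 5 minus basal (log2) of the 56 tested members, in 9A1 (vertical) against 14B3 (horizontal), filled where called in an averaged comparison, with a dotted line of equal response. Slc38a1 lies above 0 in 9A1 and below 0 in 14B3, and Slc3a1 and Slc7a9 lie below the dotted line, where basal 9A1 replicate 1 enters the 9A1 value.

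Other genes of amino acid handling were counted beside the members. Of 23 tested genes of the ATF4 amino acid response and serine synthesis, 13 were lower and 0 higher at day 1 (median -1.32, against 0.03 over all genes), among them Psat1, Mthfd2 and Psph, which fell by 3.09, 2.68 and 2.57 (log2). At day 5, 13 were lower and 3 higher (median -0.75), with Psat1, a serine synthesis enzyme, lower by 4.66 ± 0.39. Atf4 itself, singled out after its values were seen, fell by 1.51 ± 0.11 at day 1 and by 0.66 ± 0.11 at day 5. The mean of this list was 9.36 on basal 9A1 replicate 1, against 9.74 to 10.9 on the other basal arrays, 8.79 to 9.11 at day 1 and 9.04 to 9.40 at day 5, so the lowest basal array fell within the day 5 range. The share lower was 56.5% at both times, against 8.8% of all tested genes at day 1 and 18.5% at day 5. In 9A1 alone 3 (13%) were lower at day 1, against 1.53% of all tested genes.

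Cytosolic aminoacyl tRNA synthetases, which load amino acids onto tRNA, fell in 15 of 19 (78.9%) at day 1 and 17 of 19 (89.5%) at day 5, with 0 higher (medians -0.89 and -1.03). Their mean level was 10.28 on basal 9A1 replicate 1, inside the day 1 range of 9.86 to 10.40 and below the other basal arrays at 11.04 to 11.56. In 9A1 alone 1 of 19 (5.26%) was called lower at day 1 and 6 (31.6%) at day 5, against 1.53% and 8.54% of all tested genes. In 14B3 12 and 17 were called lower, against 5.17% and 14.1% of all tested genes. Vars, Lars and Kars fell by 1.86, 1.63 and 1.61 at day 5. Replication and mitosis genes, counted as a marker of dividing cells, were lower in 19 of 19 at day 1 and 18 of 19 at day 5 (median -3.85 at day 5), beside the fall of Slc7a5, Slc7a1, Slc7a11 and Slc1a5, and their part in it was not tested. Their mean level was 6.79 to 8.33 at day 5, 8.73 to 9.28 at day 1 and 10.6 to 11.7 in basal culture.

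Brush border peptidases and peptide carriers, which free and take up amino acids at the same membrane as rBAT, were higher in 7 of 9 at day 5 and lower in 0 (median 3.31), led by Mep1b (5.36), Enpep (4.54) and Anpep (4.52), beside 16.9% of all tested genes called higher. The list mean was 6.83 on basal 9A1 replicate 1, above 5.12 to 5.17 on the remaining 3, and leaving it out again gave 7 of 9. Of 8 enterocyte markers, 7 were higher at day 5 and 0 lower, with the list mean at 12.3 to 12.5 at day 5, 8.59 to 9.47 on 3 basal arrays and 11.9 on basal 9A1 replicate 1. Of 8 hepatocyte markers, 6 were higher and 0 lower, with the list mean at 10.4 to 11.9 at day 5, 6.75 to 7.39 on those 3 basal arrays and 10.05 on basal 9A1 replicate 1. In 9A1 alone, with that array included, 1 of 8 enterocyte and 1 of 8 hepatocyte markers were higher at day 5 (12.5% each), against 6.66% of all tested genes. Basal 9A1 replicate 1 was high for both marker lists, the brush border list and Slc3a1, Slc7a9 and Slc6a20a, and the part of cell type in these results was not tested. Leaving out that array also changed how many of all tested genes were called, and it left 1 array in basal 9A1. Member counts given without that array therefore cannot be set directly against those of the main fit.

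Of 24 genes of amino acid sensing upstream of mTORC1, 5 were higher and 0 lower at day 1 (20.8% higher, against 5.25% of all tested genes). At day 5, 4 were higher and 2 lower, 16.7% and 8.33% against 16.9% and 18.5% of all tested genes, so the list's share was at or under the background, with Sesn1 (2.21) and Castor2 (2.02) highest at day 5. Among 32 amino acid breakdown genes, 8 were higher and 5 lower at day 5, 25% and 15.6%, near the background of 16.9% and 18.5%, with Gpt, the alanine aminotransferase, higher by 2.89 and Prodh, the proline oxidase, lower by 2.26. Of 15 amino acid carriers of other families, 8 were higher and 1 lower at day 5 (53.3% and 6.67%), with the aromatic amino acid carrier Slc16a10 (2.46) and the mitochondrial ornithine carrier Slc25a15 (2.32) ahead. In glutathione synthesis, 5 of 11 (45.5%) were higher at day 5 and 0 lower, with Ggct by 3.22 ± 0.24, while Slc7a11, the cystine importer, was lower.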

How the data were processed

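Total RNA of 12 samples was measured on Affymetrix Mouse 430 2.0 arrays. The authors deposited log2 values made by RMA, and the submitters' processing notes name R 2.3.1. RMA makes the arrays' distributions alike and leaves unexpressed genes at a background level, so folds of dim genes are understated. Of 45101 probe sets, 34945 were paired with 1 gene by GEO's platform annotation, 932 with several (not used) and 9160 with none. All 63 members matched RefSeq (GRCm38.p6) by Entrez ID. Means of 6 groups were fitted with limma 3.58.1 (lmFit, eBayes with a variance trend, R 4.3.3) over 15781 genes, after the floor of log2 5 on at least 2 arrays. Differences are first minus second group, ± SE, and averages over lines weigh both equally. Culture, line and unequal-response comparisons were fitted, and line differences within a culture were read from the same fit, added after the values were seen. The script was tested on simulated data.

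The members and lists were chosen with earlier results of these data known. Named with values are all members called in an averaged culture comparison or between lines and both heavy chains, with every array for the 12 largest differences and the heavy chains. Other members are named with their range of levels, and of the other lists up to 3 members that moved most. Alternatives were no floor or a floor of 6, the mean of a gene's probe sets, median centring, quantile normalisation, array weights, no variance trend, the replicate block, an adjusted p under 0.01, a 2-fold minimum, and leaving out each array or 2 arrays together. For the other lists, leaving out basal 9A1 replicate 1 was added after the values were seen. No depth applies to arrays, and their number (2 per group) limits the precision.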

Additional observations from a re-analysis of the deposited data

Results flagged for a closer look

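Among the 4 arrays of a culture, 8 of 81 checks (27 members in 3 cultures) found the highest or lowest array far from the rest. Chance flags about 1 in 20 where the 4 arrays are alike. Each culture mixes 2 lines, and the 27 members were picked by a test on these arrays. The count therefore cannot be set against that rate. In basal culture 3 of the 8 fell on basal 9A1 replicate 1: Slc3a1 at 10.41 (others 5.11 to 5.46), Slc7a9 at 10.31 (others 5.04 to 5.25) and Slc6a20a at 8.12 (others 3.98 to 4.27). At day 1, Slc3a1 read 6.83 on day 1 9A1 replicate 1, below 8.08 to 8.27 on the others. At day 5, 3 fell on day 5 9A1 replicate 2: Slc7a15 at 7.35 (others 5.85 to 6.08), Slc6a8 at 11.49 (others 11.25 to 11.28) and Slc6a6 at 11.58 (others 11.83 to 11.87). Slc6a9 read 9.03 on day 5 9A1 replicate 1 (others 7.98 to 8.11).

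In 7 cases both arrays of 9A1 moved one way from basal culture and both of 14B3 the other way. The share of all genes that did so was not counted, and with 2 arrays per group such separation also arises by chance. The values below are the response of 9A1 minus that of 14B3 (log2). At day 1 these were Slc6a9 at 1.61 and Slc6a11 at 0.43. At day 5 these were Slc38a1 at 1.93, Slc38a6 at -0.64, Slc6a19 at 0.32 and Slc7a6os at 0.32. The test of the difference called none of these 6 (limma, adjusted p under 0.05). Slc6a12 at day 5, at -0.30, lay under the floor and its difference was not tested.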

How the results depend on the processing

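No result reversed under any of the alternatives run, and of 55 pairs of a named member and a comparison, 37 passed under all 22 settings. The same members passed in 1096 of their recomputed values and lost their call in 114. An adjusted p under 0.01 gave 8 members at day 1 against basal, 9 at day 5 in 9A1, 4 at day 1 in 14B3, 11 at day 5 in 14B3 and 0 between the lines. A 2-fold minimum gave 6 at day 1 and 16 at day 5 against basal. Quantile normalisation gave 1 at day 1 in 9A1, and the mean of probe sets and array weights gave 0 between the lines. Array weights gave 20 at day 1 in 14B3. Leaving out basal 9A1 replicate 1 and day 1 9A1 replicate 2 together gave 11 at day 1 in 9A1, 20 at day 1 in 14B3, 8 between the lines and 1 in the unequal response at day 5. For these shifts the cause was not tested. The share of all tested genes called under each alternative setting is not given, so these counts do not describe the members alone.

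Leaving out 1 array at a time gave 8 to 18 members called at day 1 and 19 to 25 at day 5, each against basal, and 11 to 19 at day 5 against day 1. It gave 0 to 14 at day 1 and 7 to 21 at day 5 in 9A1, and 1 to 17 at day 1 and 8 to 22 at day 5 in 14B3. Between the lines it gave 0 to 9, and in the unequal response 0 to 9 at day 1 and 0 to 6 at day 5. A group left with 1 array is assumed to vary like the others. Shares of all tested genes called in these runs are not set beside the counts, here or above. The shifts in count are therefore not particular to the members.

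Replicate numbers were not treated as pairs: deviations of same-numbered arrays correlated at -0.30, -0.19 and 0.38 in 9A1 and at -0.10, -0.07 and -0.02 in 14B3. With the replicate number as a block, 13 members were called at day 1 and 22 at day 5 against basal, 7 at day 1 and 18 at day 5 in 14B3, and 0 between the lines. Dim probe sets limit the folds of Slc3a1, Slc7a9, Slc6a20a and Slc7a11, whose low levels lie near background.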
